A study of Mus musculus with 5 samples.

Results

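The E2F4 sites of secondary mouse embryonic fibroblasts were described at a resolution of 100 bp, as runs of bins that stood out in the E2F4 library of this chromatin immunoprecipitation series, with whole cell extract without antibody (WCE) replicate 2 as background. The sites were chosen by the E2F4 reads themselves. Chromosomes 1 to 19 were cut into 24624243 bins of 100 bp (mouse build mm8), every bin with at least 8 E2F4 reads was kept, and adjacent bins were joined. This gave 5942 sites made of 12834 bins, 0.0521% of all bins. Because E2F4 reads chose the sites, their E2F4 counts, widths and ratios to WCE are given as a description, without a test. The sites covered 1283.4 kb and held 281124 E2F4 reads, 14.3% of the autosomal E2F4 reads (exact 95% interval 14.2 to 14.3), against 0.735% of the reads of WCE replicate 2.

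The fibroblasts carried doxycycline-inducible cassettes for Klf4, Sox2 and Oct4 and an Oct4-selectable cassette. Inducible pluripotent cells that had been derived in Wnt3a-conditioned medium were placed in BDF2 blastocysts, fibroblasts were taken from chimeric embryos at 13.5 days post coitum, and 2 µg/ml puromycin for 48 hours selected the descendants of the injected cells. All 5 libraries came from such cells, the labels give no doxycycline treatment for any of them, and the number of embryos or clones was not stated. The libraries were 1 each for E2F4 (antibody SC-1082), the transcribing enzyme RNA polymerase II (RNA Pol II, with antibody 8WG16) and trimethylated lysine 27 of histone H3 (H3K27me3), and 2 of WCE. Each antibody has a single library, so no value below has a spread between replicates, and every ratio compares libraries and not conditions.

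E2F4 is a DNA-binding member of the E2F family and pairs with a DP partner protein. It is known as the E2F that occupies promoters of cell cycle genes in resting and early G1 cells, where it recruits retinoblastoma-like pocket proteins and the DREAM repressor complex, and it is abundant in fibroblasts. In a sequencing library a bound factor gives a cluster of plus-strand 5′ ends on its left and of minus-strand 5′ ends on its right, and the distance between the clusters follows the length of the sequenced fragments. The sonicated chromatin averaged 500 bp, and the gel slice kept inserts of 50 to 200 nt.

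After reads that repeated a position and strand had been removed, 1971874 autosomal E2F4 reads were left, beside 3111606 in the RNA Pol II library, 9483163 in the H3K27me3 library, and 417799 and 11226593 in replicates 1 and 2 of WCE. A read of WCE replicate 2 therefore weighs 5.69 times less than a read of E2F4 when the libraries are set on one scale. Per the file headers, E2F4, RNA Pol II and WCE replicate 1 were read in one sequencing run and H3K27me3 and WCE replicate 2 in another, so antibody and run cannot be told apart in the contrast of E2F4 with WCE replicate 2. WCE replicate 1 was too shallow for a comparison site by site, since 5800 of the 5942 sites held none of its reads.

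Most of the genome held no E2F4 read at this scale, and the count of bins fell smoothly through the threshold. The mean was 0.0801 reads per bin, and 94.1% of bins were empty. Bins with exactly 7 reads numbered 2288 and were left out, bins with exactly 8 reads numbered 1762 and were kept. In the other libraries these neighbours of the threshold held much the same. The bins of 7 reads held on average 24.9 RNA Pol II, 1.51 H3K27me3 and 5.29 WCE replicate 2 reads, and the bins of 8 reads held 25.4, 1.41 and 5.44. Runs whose highest bin held 7 reads had a median strand offset of 126 bp, and those whose highest bin held 8 had 131.5 bp. The number of sites followed the threshold, with 8480 at 6 reads and 3587 at 12.

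**Figure D1:**
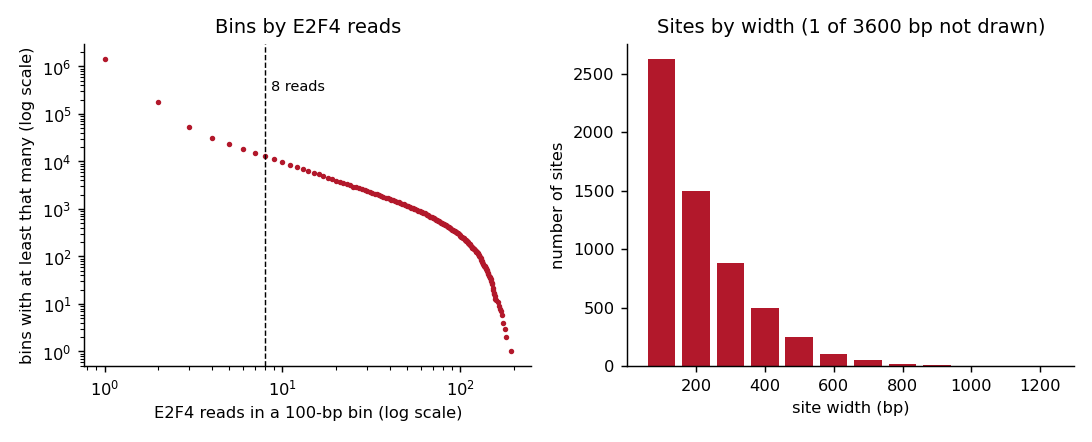
Left, the number of 100-bp bins (log scale) with at least a given number of E2F4 reads (log scale), with the threshold of 8 reads as a dashed line. Right, the number of sites of each width in bp; 2623 sites are a single bin wide and the counts fall with every further bin up to 1000 bp.

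Sites were short. The median width was 200 bp, with quartiles of 100 and 300 bp. Single bins made up 2623 sites, 44.1%, and 1500 sites were 200 bp wide. Sites of at least 400 bp numbered 941, 15.8%, and sites of at least 1000 bp only 7. Width grew with the number of reads, as the rule makes it do, because a taller cluster lifts more of its slopes over 8 reads. Sites of 8 to 11 reads had a median width of 100 bp, and those of 100 or more reads had 500 bp.

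The width of the summed read profile varied less with strength than the run of bins did. For the profiles each site was centred on the midpoint between the median 5′ ends of its strands, and the 90 sites with a ratio to WCE replicate 2 under 3 were left out. Summed over the other 5852 sites, the E2F4 profile was 180 bp wide at 50% of its height above the level 2 to 3 kb away. It was 170 bp wide in sites of 8 to 11 reads, 140 bp in sites of 12 to 19 and 190 bp in sites of 100 or more, while the density within 50 bp of the centre went from 438 to 4280 reads per kb per 10000000 reads. The 60 bp move of the 5′ ends and the choice of centre from the same reads both enter this width. A second maximum within a site was rare, which the rule favours. A dip under 8 reads between maxima parts them into separate sites, and these are counted below as close pairs. Among the 941 sites of at least 400 bp, 31 (3.29%) held a pair of bins parted by a bin with no more than 50% of the reads of the smaller one, at a median separation of 400 bp.

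The other libraries were broader at the same places. The RNA Pol II profile was 520 bp wide at 50% of its height and that of WCE replicate 2 was 440 bp wide. At the centre E2F4 stood at 141 times, RNA Pol II at 45.2 times and WCE replicate 2 at 6.54 times its own level 2 to 3 kb away. H3K27me3 was lower at the centre than beside it, with 12.4 reads per kb per 10000000 within 50 bp and 14.6 at 150 to 250 bp. The same rule of 8 reads gave 20030 runs of bins for the deeper RNA Pol II library. Of the E2F4 sites, 4975 (83.7%) overlapped such a run. The widest run that each of them touched had a median width of 500 bp, against 200 bp for the E2F4 sites, and it was wider than the E2F4 site in 3900 cases, equal in 466 and narrower in 609. Taking the widest run favours wide ones, and the median over all 20030 RNA Pol II runs was 200 bp.

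**Figure D2:**
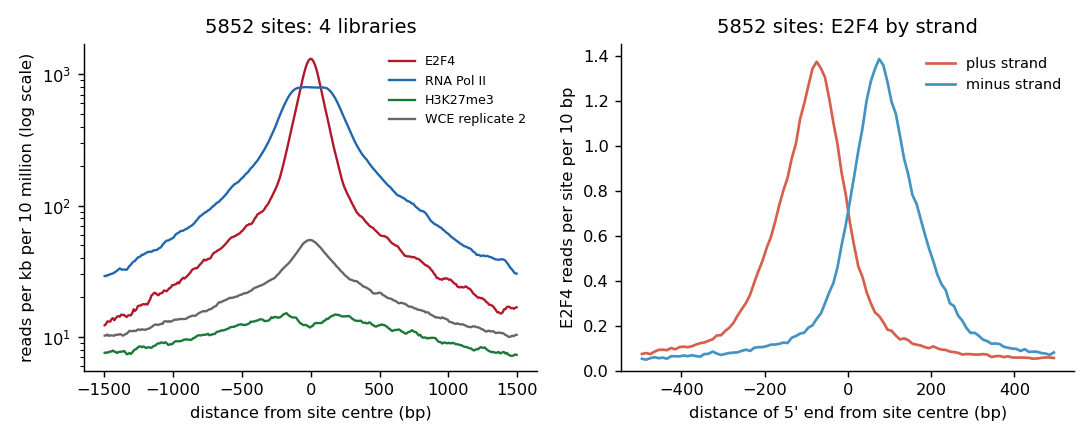
Mean profiles over the 5852 sites with a ratio to WCE replicate 2 of at least 3. Left, reads per kb per 10000000 autosomal reads (log scale) of 4 libraries against distance from the site centre in bp, after the 60 bp move; E2F4 forms a peak 180 bp wide on top of a 520 bp wide RNA Pol II plateau, and H3K27me3 dips at the centre. Right, unmoved E2F4 5′ ends per site per 10 bp by strand, with peaks 75 bp to either side of the centre.

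Plus-strand reads lay to the left of minus-strand reads at most sites. The offset of a site is its median minus-strand 5′ end less its median plus-strand 5′ end, over unmoved reads within 200 bp of the site, and 5923 sites had the 3 reads per strand that it needs. The median offset was 150.5 bp, with quartiles of 116.5 and 177.5 bp. It lay between 100 and 200 bp in 4373 sites, 73.8%, and below 0 in 202, 3.41%. In the mean profile the plus-strand peak lay 75 bp to the left and the minus-strand peak 75 bp to the right of the centre. Pairs of E2F4 reads on opposite strands were most frequent at a distance of 177 bp inside the sites and 171 bp elsewhere on the autosomes. The sites and 200 bp around them held 94.2% of all E2F4 strand pairs up to 400 bp apart. A move of 60 bp on each strand brings reads 120 bp closer, so at the median site it leaves 30.5 bp between the strands.

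The median offset per site rose with the number of reads. Sites of 8 to 11 reads had a median of 127.5 bp (quartiles 88 and 159), sites of 20 to 39 reads had 152 bp (125 and 179) and sites of 100 or more had 176 bp (161 and 189.5). The spread between the quartiles narrowed from 71 to 28.5 bp along the same classes. Spearman's rho of reads and offset over sites was 0.390, given as a description, since both come from one library and sites with few reads hold a larger share of background. The window used for a site also widened with the site, and it can take in reads of a neighbour. Sites of 8 to 11 reads had a neighbour within 1 kb more often (26.96%) than sites of 100 or more (13.98%). With 5′ ends within 100 bp in place of 200 bp, the median offset over all sites was 137 bp. The peak distance of opposite-strand pairs did not rise as the offset did, with 191, 146, 156, 153 and 181 bp from the weakest to the strongest of the 5 classes. In the same windows, which were set by the E2F4 sites, the broader RNA Pol II and WCE replicate 2 had smaller offsets. Pairs of RNA Pol II reads on opposite strands were most frequent at 138 bp inside the sites and 144 bp elsewhere, farther apart than its median offset. The median offset was 103.5 bp for RNA Pol II (quartiles 60 and 132, 5710 sites) and 83 bp for WCE replicate 2 (14.5 and 139.5, 5701 sites). The E2F4 offset exceeded that of RNA Pol II in 4469 of the 5695 sites with both.

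Strands contributed about equally. Of the unmoved reads within 200 bp of a site, the plus strand held a median of 50.0% (quartiles 44.4 and 55.6%). In 57 sites over 80% of the reads in this window were on 1 strand, and the window can include reads of a neighbouring site.

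**Figure D3:**
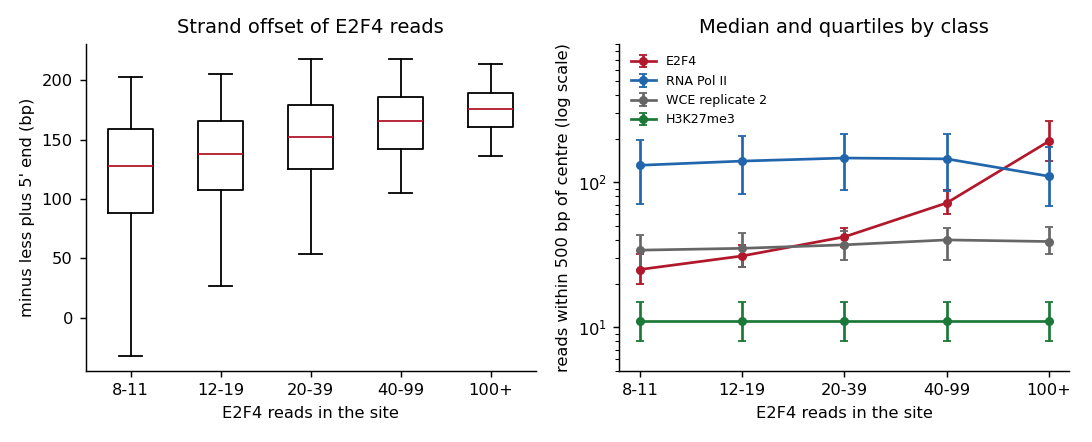
Left, strand offset of E2F4 reads in bp by number of E2F4 reads in the site, as boxes from lower to upper quartile with the median as a red line and whiskers at the 5th and 95th percentile; medians go from 127.5 to 176 bp. Right, median and quartiles of the reads within 500 bp of the site centre (log scale) in 4 libraries by the same classes; E2F4 goes from 25 to 192 while H3K27me3 stays at a median of 11.

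The classes of E2F4 reads, RNA Pol II reads and ratio used here were chosen after their values were seen. Strength was spread over a wide and skewed range. A site held a median of 20 E2F4 reads, with quartiles of 10 and 47, a 90th percentile of 121 and a 99th percentile of 349. The 1951 sites of 8 to 11 reads were 32.8% of all sites and held 6.28% of the site reads. The 737 sites of 100 or more reads were 12.4% of all sites and held 53.7%. The strongest 1%, 59 sites, held 9.12% of the site reads, the strongest 10% held 48.1% and the strongest 50% held 88.0%.

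Ratios to the extract followed the same order. With libraries scaled by their autosomal totals, the sites together stood at 19.4 times WCE replicate 2 (exact conditional 95% interval 19.2 to 19.5, counting error only). The ratio was 9.42 (9.19 to 9.65) in sites of 8 to 11 reads and 32.0 (31.6 to 32.4) in sites of 100 or more. The upper class mixes sites of high and low ratio. The widest site, on chromosome 17, held 4403 of the 26839 WCE replicate 2 reads of that class but 1710 of the 150833 E2F4 reads. Per site, with a pseudocount of 1 read on each side, the median ratio was 8.14, with quartiles of 5.83 and 13.7 and a range of 0.753 to 136. Against the 427 reads of WCE replicate 1 in the sites the summed ratio was 139 (127 to 154), which shows how far the background library sets this value.

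Counting 1 read per position and strand sets a ceiling that the strongest sites approached. A bin of 100 bp can hold 200 distinct reads, and the fullest bin held 193, 96.5% of that number. With repeats of a position kept, sites whose highest bin held under 20 reads had 1.24 reads for each distinct one, those with 50 to 99 had 1.51, those with 100 to 149 had 1.90 and the 27 sites with 150 or more had 2.45. WCE replicate 2 stayed between 1.10 and 1.16 in the same 5852 sites. With the 90 sites of low ratio included, it reached 1.57 in sites of 100 or more E2F4 reads. The share of amplified copies among these repeats was not tested, since no molecular identifiers were used. Repeats kept, the strongest 1% of sites held 13.1% of the site reads and the strongest 10% held 55.7%. Of the 10 strongest sites by distinct reads, 6 were also among the 10 strongest by all reads, and of the strongest 594 sites, 577 were shared.

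**Figure D4:**
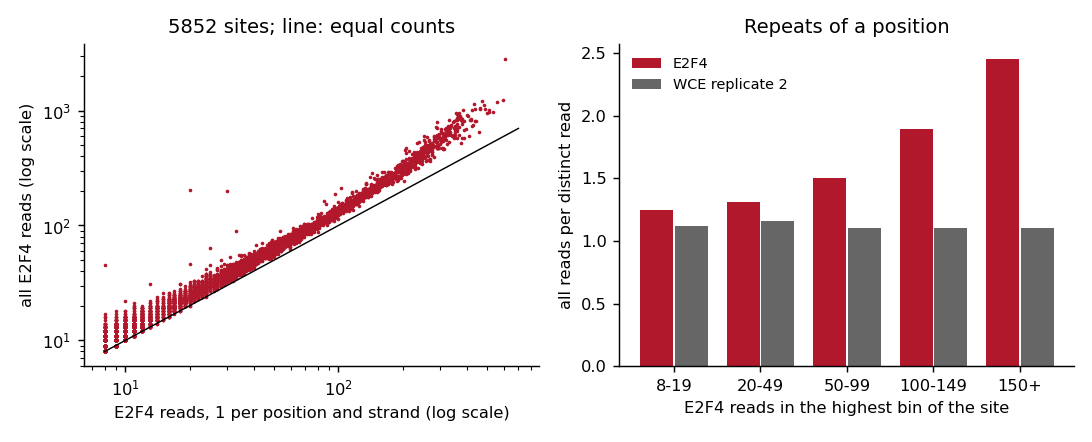
Left, all E2F4 reads of a site against its reads counted at 1 per position and strand (both log scale) for 5852 sites, with a line of equal counts; the band of sites bends away from the line at high counts, and a few weaker sites also lie far above it. Right, all reads per distinct read by the number of E2F4 reads in the highest bin, for E2F4 (1.24 to 2.45) and WCE replicate 2 (1.10 to 1.16) in the same sites.

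The 10 sites with the most E2F4 reads were named by rule, and the first of them was high in every library. On chromosome 17 from 39451201 to 39454800 it was 3600 bp wide, the widest of all, and held 1710 E2F4, 1323 RNA Pol II, 4843 H3K27me3, 13 WCE replicate 1 and 4403 WCE replicate 2 reads. The ratio of E2F4 to WCE replicate 2 was 2.21 (2.09 to 2.34) and the strand offset was -74.5 bp. The neighbouring site from 39455901 to 39456900 had 346 E2F4 and 985 WCE replicate 2 reads, a ratio of 2.00 (1.76 to 2.26). Of the 5 sites with the most WCE replicate 2 reads, the others lay on chromosome 2 from 98467001 to 98468200 (268 E2F4 against 519 reads), on chromosome 5 from 3000001 to 3000900 (169 against 317) and on chromosome 11 from 108827801 to 108828200 (118 against 302). Their offsets were 25 to 45.5 bp.

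The other 9 of the strongest sites had ratios of 28.3 to 124 to the extract. Chromosome 1 from 90108301 to 90109000 held 606 E2F4, 248 RNA Pol II, 19 H3K27me3, 0 WCE replicate 1 and 122 WCE replicate 2 reads, a ratio of 28.3 (23.3 to 34.6). With repeats kept it held 2836 E2F4 reads and only 141 of WCE replicate 2, and its fullest bin was the one with 193 reads. Chromosome 15 from 57964901 to 57965600 held 590 E2F4, 130 RNA Pol II, 12 H3K27me3, 0 WCE replicate 1 and 27 WCE replicate 2 reads. Its ratio of 124 (84.6 to 190) had the highest value of the 10. Chromosome 12 from 70086901 to 70087700 held 553 E2F4, 130 RNA Pol II, 15 H3K27me3, 0 WCE replicate 1 and 54 WCE replicate 2 reads, a ratio of 58.3 (44.0 to 78.6). Chromosome 13 from 23768601 to 23769200 held 512 E2F4, 113 RNA Pol II, 6 H3K27me3, 0 WCE replicate 1 and 29 WCE replicate 2 reads, a ratio of 101 (69.1 to 152).

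The remaining 5 held 485 to 533 E2F4 reads each. They lay on chromosome 17 from 35449201 to 35449900 (ratio 61.9), chromosome 10 from 75885901 to 75886800 (46.2), chromosome 12 from 25296901 to 25298000 (39.9), chromosome 4 from 126059001 to 126059700 (79.7) and chromosome 14 from 66668501 to 66669100 (64.2). Their strand offsets were 155.5 to 201.5 bp. The site on chromosome 4 had the fewest RNA Pol II reads of the 10, with 48 against 490 of E2F4. No gene is named for these positions, because the reads are on mm8 and the gene table used here is of another build. For the same reason the fibroblast label was not checked against marker genes.

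Among the 5 widest sites, the rest after chromosomes 17, 2 and 12 were 1200 bp wide. Chromosome 1 from 193275601 to 193276800 held 458 E2F4 and 78 WCE replicate 2 reads, and chromosome 3 from 107461001 to 107462200 held 377 and 72, with offsets of 214 and 141 bp. Wide sites therefore belonged to both kinds, with ratios of 29.8 to 39.9 in 3 of them and 2.21 and 2.94 in the others.

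Over all sites, the strand offset differed with the ratio to the extract. The 90 sites with a ratio under 3, 1.51% of all, had a median offset of 98 bp (quartiles 35.1 and 154.8). The 934 sites with a ratio of 3 to 5 had 135.5 bp and the 931 sites with a ratio of 20 or more had 171 bp (153.5 and 186.5). The 90 sites held 3890 E2F4 reads. Their summed H3K27me3 reads stood at 1.10 times WCE replicate 2 (1.07 to 1.14), and at 0.936 (0.898 to 0.975) without the widest site on chromosome 17, against 0.257 (0.253 to 0.262) in the other 5852. A few sites carried that sum, since the median site of the 90 held 3 H3K27me3 and 15 WCE replicate 2 reads.

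The median distance from one site to the next was 93100 bp, with quartiles of 23650 and 318600 bp and a largest gap of 12797600 bp, over 5923 neighbouring pairs. Pairs up to 1 kb apart numbered 683, 11.5%, and 161 pairs lay between 1 and 5 kb apart. There were 195 pairs at 5 to 10 kb, 1148 at 10 to 50 kb and 860 at 50 to 100 kb. Per kb of distance, the pairs fell from 216 at 500 to 1000 bp to 60 at 1 to 2 kb, and were 33.7 at 2 to 5 kb, 39 at 5 to 10 kb, 28.7 at 10 to 50 kb and 17.2 at 50 to 100 kb. A peak near 100 kb thus appears only when distances are counted in steps of a log scale. Below 1 kb the counts fell from 267 pairs with 1 bin between them to 126, 85, 54 and 43 with 2 to 5 bins between.

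**Figure D5:**
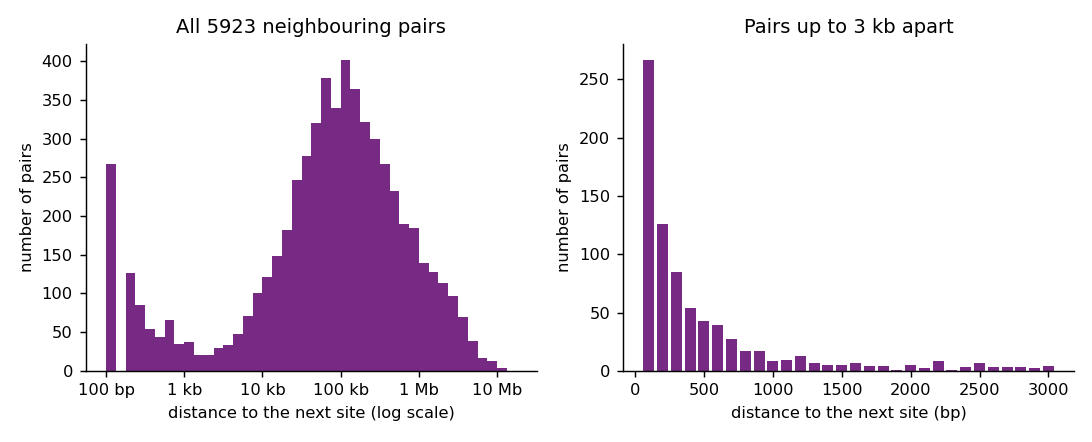
Left, the distances between all 5923 neighbouring sites (log scale), in steps that widen with distance, so that a broad peak appears near 100 kb beside the short distances below 1 kb. Right, pairs up to 3 kb apart in steps of 100 bp, falling from 267 pairs at 100 bp to 8 at 1000 bp.

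Close pairs were often parted by a bin just short of the threshold. In 197 of the 267 gaps of 1 bin (73.8%) that bin held 4 to 7 E2F4 reads. The weaker member of a pair up to 1 kb apart had a median of 10 reads and the stronger one 28, and both had at least 20 reads in 123 of the 683 pairs. Sites of 8 to 11 reads had a neighbour within 1 kb in 26.96% of cases and sites of 100 or more in 13.98%. Among the 737 sites of 100 or more reads, only 5 neighbouring pairs were up to 1 kb apart, and the median distance was 1439250 bp.

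When sites up to 1 kb apart were joined, 5259 groups remained, of which 4653 were single sites, 543 held 2 and 63 held 3 or more. Their median distance was 121500 bp, with quartiles of 41700 and 385100 bp. In the 416 pairs that were 200 to 1000 bp apart, E2F4 density fell between the members to 0.130 of its level in them, RNA Pol II to 0.678 and WCE replicate 2 to 0.508. Part of the drop in E2F4 comes from the rule, which sets the members above and the gap below 8 reads.

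The 5 close pairs with the most reads in the weaker member included 4 with ratios far above 3. On chromosome 5 the sites from 138400701 to 138401400 and from 138401501 to 138402000, 100 bp apart, held 188 and 149 E2F4, 63 and 62 RNA Pol II, and 41 and 24 WCE replicate 2 reads. On chromosome 10 the sites from 40038201 to 40038800 and from 40039401 to 40039700, 600 bp apart, held 130 and 122 E2F4 reads. Their RNA Pol II reads were 60 and 11 and their WCE replicate 2 reads 31 and 7, with widths of 600 and 300 bp. The pair was near equal in E2F4, and RNA Pol II was unequal in the same direction as the extract and the width. On chromosome 2 the sites from 3391501 to 3391800 and from 3392201 to 3392500, 400 bp apart, held 101 and 103 E2F4 reads but 5 and 101 of RNA Pol II. Both were 300 bp wide, with 11 and 16 WCE replicate 2 reads. On chromosome 17 the sites from 55936801 to 55937200 and from 55937501 to 55938200 held 101 and 413 E2F4 and 30 and 57 RNA Pol II reads. The fifth pair, on chromosome 2 from 98463101 to 98463800 and from 98464501 to 98465000, had ratios to WCE replicate 2 of 2.63 and 3.41 and offsets of 79 and 15.5 bp.

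RNA Pol II, which took no part in the choice of sites, was high at most of them. RNA Pol II is the enzyme that transcribes protein-coding genes, and it gathers at their start sites. In the highest E2F4 bin of a site it had at least 8 reads in 4553 of 5942 sites, 76.6% (75.5 to 77.7), against 0.257% of all bins. The same count was 29.6% (28.4 to 30.8) for WCE replicate 2, against 0.0751% of all bins, and 1.60% (1.295 to 1.95) for H3K27me3, against 0.193%. These libraries differ in depth, so each share is read only against its own background. Over the sites RNA Pol II stood at 13.8 times WCE replicate 2 (13.7 to 13.9), and at 99.5 times (90.5 to 110) WCE replicate 1.

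The amount of RNA Pol II hardly followed the amount of E2F4. Within 500 bp of the site centre the median was 131 RNA Pol II reads (quartiles 71 and 197) at sites of 8 to 11 E2F4 reads, 147 (89 and 216) at 20 to 39, 145 (87 and 214) at 40 to 99 and 110 (69 and 175) at 100 or more. E2F4 reads in the same windows had medians of 25, 42, 72 and 192. Set against WCE replicate 2 inside the sites, RNA Pol II went from 17.0 times (16.7 to 17.4) in the weakest class to 9.26 times (9.13 to 9.39) in the strongest. The strongest class includes the widest site, on chromosome 17. That site held 4403 of the 26839 WCE replicate 2 reads of the class and 1323 of the 68868 RNA Pol II reads. Median site width was 100 bp in the weakest class and 500 bp in the strongest, so these ratios compare sites of unlike width. Spearman's rho of E2F4 and RNA Pol II reads in these windows was 0.116 over the 5942 sites, and that of E2F4 and WCE replicate 2 was 0.278. Both are descriptions, and all windows share the density of mappable sequence.

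WCE replicate 2 was itself raised at the sites and rose with E2F4. In the 5852 sites its reads within 500 bp stood at 3.77 times their level 2 to 5 kb away in the class of 8 to 11 E2F4 reads and at 5.34 times in the class of 100 or more. RNA Pol II stood at 27.7 and 32.0 times in the same classes. H3K27me3 went from 2.13 to 2.63 times. WCE replicate 1 was not raised in sum, at 0.757 and 0.784 times in the same classes. The rise was thus seen in WCE replicate 2 and not in replicate 1. The part of the raised WCE replicate 2 in the site counts was not tested.

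RNA Pol II also changed its shape with E2F4 strength. At sites of 8 to 11 E2F4 reads its density at 150 to 250 bp from the centre was 0.661 of that within 50 bp. The value was 0.665 at 20 to 39 reads, 0.856 at 40 to 99 and 1.01 at 100 or more, where the profile had its maximum 140 bp from the centre and was 640 bp wide at 50% of its height. WCE replicate 2 stayed at 0.563 to 0.683 across the 5 classes. In single sites of these 5852 with at least 100 RNA Pol II reads within 500 bp, the densest 110 bp of RNA Pol II lay at a median of 125 bp from the E2F4 centre (quartiles 65 and 215, 3874 sites). By the same measure WCE replicate 2 lay at a median of 105 bp (45 and 215) in the 4022 sites with at least 30 of its reads, so this distance was similar in the extract. The E2F4 strands, each moved by 85 bp, placed their own densest 110 bp a median of 40 bp apart (20 and 70, 4165 sites).

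Seen by RNA Pol II, the strongest E2F4 sites were most frequent where RNA Pol II was moderate. Among the 5852 sites, those of 100 or more E2F4 reads were 1.57% of the 191 sites with under 10 RNA Pol II reads within 500 bp. They were 15.1% of the 634 sites with 10 to 49, 18.6% of the 1153 with 50 to 99, 12.5% of the 2364 with 100 to 199 and 8.08% of the 1510 with 200 or more. The ratio of E2F4 to WCE replicate 2 was 19.5 (18.2 to 21.0) under 10 RNA Pol II reads. It was 31.4 (30.5 to 32.3) at 10 to 49 RNA Pol II reads and 15.3 (15.03 to 15.5) at 200 or more. In the last 2 classes the median site held 20 and 21 E2F4 reads. The median of WCE replicate 2 within 500 bp of the centre, a wider window than the site, was 26 and 45. Spearman's rho of RNA Pol II and WCE replicate 2 within 500 bp was 0.454 over all sites. Strand offsets were alike along these classes, with medians of 146.5 to 154.5 bp.

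H3K27me3, the mark laid down by Polycomb proteins, stood at 0.355 times WCE replicate 2 (0.350 to 0.360) in sum over the sites. Its summed reads within 500 bp stood at 1.49 times WCE replicate 2 in the 191 sites with under 10 RNA Pol II reads, at 0.599 with 10 to 49 and at 0.325 with 200 or more. The median H3K27me3 count moved little along the 5 classes, from 13 (quartiles 7 and 31.5) to 10, 10, 11 and 12, while the median of WCE replicate 2 went from 20 to 26, 32, 37 and 45. By these medians the sites with under 10 RNA Pol II reads were also below the extract, and a minority carried their sum. At least 30 H3K27me3 reads were found in 51 of the 191 sites and 15 of the 1510.

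The 21 sites without any RNA Pol II read within 500 bp were weak in E2F4, with 8 to 37 reads and a median of 11. A count of 0 allows for up to 3 reads at this depth. Their median was 36 H3K27me3 reads (range 2 to 170) against 11 over all sites, and 12 of the 21 held at least 30, against 3.55% of all sites. Chromosome 19 from 45274601 to 45274800 led with 37 E2F4, 10 H3K27me3, 0 WCE replicate 1 and 3 WCE replicate 2 reads, and 52 H3K27me3 reads within 500 bp. Chromosome 7 from 79369601 to 79369700 held 22 E2F4 and 7 WCE replicate 2 reads, with 62 H3K27me3 reads within 500 bp. Chromosome 8 from 86900101 to 86900300 held 22 and 12, with 36, and chromosome 7 from 142963401 to 142963500 held 21 and 5, with 30. Chromosome 16 from 50534901 to 50535100 differed, with 22 and 5 reads but only 2 of H3K27me3 within 500 bp. The strand offsets of these 5 sites were 135.5 to 199 bp.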

How the data were processed

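Chromatin immunoprecipitation libraries of E2F4, RNA Pol II and H3K27me3 and 2 WCE libraries were analysed. The authors deposited a genome position for each aligned read, with a minus sign for the minus strand. Per the file headers, bowtie placed them on mm8, with -l 36 in the run of H3K27me3 and -l 26 in the other; the submitters' processing notes name Bowtie without a version. Only reads with 1 placement were counted. Positions were taken as leftmost bases, since pairs of opposite strands with equal positions were more frequent than at neighbouring distances in all 5 libraries, and -l was taken as the read length.

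Bins of 100 bp, a 60 bp move of 5′ ends and at least 8 E2F4 reads defined sites. Libraries were scaled by autosomal totals. Intervals are exact (Clopper-Pearson, 95%), cover counting error only, and amplified reads are not independent molecules. Named sites followed a rule: the 10 with most E2F4 reads, the 5 widest, the 5 with most WCE replicate 2 reads, the 5 strongest without RNA Pol II within 500 bp, and the 5 pairs up to 1 kb apart with most reads in the weaker member; the 3 densest windows of 1 Mb were named too. The sites and these rules were chosen with earlier results of these data known. The site finder was tested on simulated data. Sequences were not read, since no mm8 genome was used here. Python 3.11.15, numpy 2.4.6, pandas 2.3.3 and scipy 1.17.1 were used.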

Additional observations from a re-analysis of the deposited data

Results flagged for a closer look

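E2F4 reads listed at 2 places were not counted above, yet they carried signal at the same sites. Over all 5942 sites there were 9905 such distinct placements for E2F4 and 4468 for WCE replicate 2, a ratio of 5.53 (5.34 to 5.73) when scaled by the totals of these lists. In the 5852 sites with a ratio to WCE replicate 2 of at least 3 there were 8397 and 1876, a ratio of 11.2 (exact 95% interval 10.6 to 11.7), and these sites had been kept for a high ratio of counted reads. Such a read is counted wherever it was placed, and its true place was not tested.

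E2F4 reads removed as repeats of a position also lay in the sites more often than those of the extract. Each removed read shares its position and strand with a counted read, and counted E2F4 reads chose the sites. The values below are therefore a description and not separate support for the sites. Over all sites they numbered 141647 for E2F4 and 25509 for WCE replicate 2, a ratio of 10.2 (10.0 to 10.3) by the totals of removed reads, below the 19.4 of the counted reads. In the 5852 sites, kept for a high ratio of counted reads, they numbered 139340 for E2F4 and 9338 for WCE replicate 2. That is a ratio of 27.4 (26.8 to 27.9), against 21.6 (21.4 to 21.8) for the counted reads. The order of removed and counted reads therefore turned with the 90 sites of low ratio.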

How the results depend on the processing

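The median width of 200 bp was the same under all 9 settings tried, but widths come only in steps of 100 bp, so smaller shifts could not show. The number of sites stayed within 1.5 times of 5942 except at 12 reads per bin. Read length and the 100 bp flank were added after the data were seen. With 6 reads per bin the offset was 146.5 bp, the median distance 61000 bp and the ratios to WCE replicate 2 were 16.2 for E2F4 and 14.6 for RNA Pol II. With 12 reads there were 3587 sites, with 156 bp, 161850 bp, 24.8 and 12.2. A move of 90 bp gave an offset of 155 bp and an E2F4 ratio of 19.6, and no move a distance of 109400 bp. Keeping repeats gave 146 bp, 68450 bp, 17.4 and 13.3. Joining over 1 bin gave 154 bp, 104300 bp and an E2F4 ratio of 19.2. A demand for a ratio of 3 in each bin, which left 5873 sites and differs from the 5852 sites kept by their own ratio, raised the ratios to 21.9 and 15.5, scaling on 10 kb bins without sites to 23.2 and 19.9, and WCE replicate 1 in place of replicate 2 to 139.5 and 99.5. The offset was 159 bp with an E2F4 read length of 36 and 137 bp with 5′ ends within 100 bp. The other 32 values lay inside the counting interval of the main value or, for counts, within 1.5 times. No site has a replicate check.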

Other observations

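Sites were unevenly spread over the chromosomes. Chromosome 11 had the highest density, with 563 sites or 4.62 per Mb, and chromosome 19 had 3.83 per Mb. Chromosome 13 had the lowest, with 1.48 per Mb, followed by chromosome 3 with 1.58. The read density of WCE replicate 2 also differed, with 6.12 reads per kb on chromosome 11 and 4.26 on chromosome 13. Median strength was nearly level, between 17 E2F4 reads per site on chromosome 16 and 23 on chromosomes 6, 15 and 19.

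Of 2473 windows of 1 Mb, 997 (40.3%) held no site and 124 held 10 or more, around a mean of 2.40. The densest was chromosome 10 from 80000001 to 81000000, with 40 sites in 31 groups up to 1 kb apart. Its left neighbour, from 79000001 to 80000000, was second with 31 sites in 23 groups. Chromosome 19 from 5000001 to 6000000 followed with 25 sites in 23 groups. At least 8 RNA Pol II reads in the highest bin were found in 26 of the 40 sites, 24 of the 31 and 20 of the 25. The share over all sites was 76.6%. These windows were dense in sites of ordinary strength, with medians of 16.5, 17 and 23 E2F4 reads and highest values of 111, 112 and 236.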
